A study of Mus musculus with 6 samples.

Results

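The genes described here are 10 transcripts of fat and sugar digestion and of lipid absorption that are best known from the pancreas and the small intestine. They were measured in the epithelial fraction of the mouse colon. They were picked by name out of 46078 genes in the count table, with the genotype differences of these same libraries already known. The genotype values below are therefore a description and support nothing beyond the 6 libraries. The fraction is what an EDTA and DTT wash lifts off the colon. Total RNA was sequenced from 3 Lingo2-/- libraries and 3 wild type (WT) libraries of naive mice aged 2 months. The labels give the genotype without the allele or construct behind it, and do not say that the replicates of a genotype are separate animals, so the p-values speak only of library to library spread, part or all of which may be technical.

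Dietary fat is split in the gut lumen by lipases that need colipase to hold on to a droplet coated with bile salts. Disaccharides are cut at the enterocyte surface by enzymes anchored in the brush border, the carpet of microvilli. Inside the enterocyte, small binding proteins carry fatty acids or bile acids, and a transfer protein loads lipid on to apolipoproteins to build chylomicrons, the particles that leave towards the lymph. Most of these steps belong to the small intestine, and the colon carries them out weakly or not at all.

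Reads on genes numbered 7060769 to 13047682 in the Lingo2-/- libraries and 25010618 to 28029583 in the WT libraries, so low transcripts are counted less precisely in Lingo2-/-. Lingo2 itself had 1, 1 and 0 reads in Lingo2-/- replicates 1, 2 and 3 and 0, 7 and 0 reads in WT replicates 1, 2 and 3, which does not check the genotype labels. The fraction carried its defining epithelial and colon transcripts. The 7 epithelial markers summed to 3513 to 4144 CPM in Lingo2-/- and 3556 to 4369 CPM in WT, and the 8 colon markers to 13255 to 16052 CPM in Lingo2-/- and 15621 to 16842 CPM in WT. CPM are reads scaled to the library size after TMM normalization. The 8 markers of T cells and intraepithelial lymphocytes were all lower in Lingo2-/-, at a summed 69.8 to 90.8 CPM against 277 to 329 CPM in WT, and in bulk RNA fewer cells of a type and less RNA per cell cannot be told apart. Over all genes, edgeR's quasi-likelihood test called 2.57% of 16757 tested genes at a Benjamini-Hochberg adjusted p under 0.05, 1.04% higher and 1.52% lower in Lingo2-/-. The DESeq2 Wald test called 4.01% of the same genes. These shares stand beside the called counts of every gene list below. The share of all tested genes at an unadjusted p under 0.05 was not computed, so nothing is read from counts at that level.

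The 10 transcripts fell into separate patterns. Pnliprp2 and Clps, a lipase and colipase, were higher in each Lingo2-/- library than in any WT library, by about 16-fold and 3.8-fold between the means. Treh, Sis, Lct, Apoa1, Apoa4 and Mttp were highest in Lingo2-/- replicate 2 and, among WT libraries, in WT replicate 3. Fabp2 differed little between the genotypes, and Fabp6 was low and lower still in Lingo2-/-. All 10 passed the filter on low counts, which asked for at least 0.526 CPM in 3 libraries. Each of 9 reached that level in all 3 libraries of both genotypes, and Fabp6 reached it in 2 Lingo2-/- and 3 WT libraries. The test called 2 members, both higher, and 8 were not called. With that filter no member was called lower by edgeR or by DESeq2, and 1, Fabp6, had an unadjusted p under 0.05 with a fitted value below 0. With no filter edgeR called Fabp6 lower. The groups did not overlap in 5 members on the higher side, against 12.3% of all tested genes, and in 1 on the lower side, against 11.8%. The fitted change was over 2-fold higher in 7 members, against 1.29% of all tested genes, and over 2-fold lower in 1, against 2.58%. The median log2 fold change was 1.36 over the members and 0.00 over all tested genes. Since the genotype contrast was known when the members were put together, nothing is read from these counts.

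**Figure D1:**
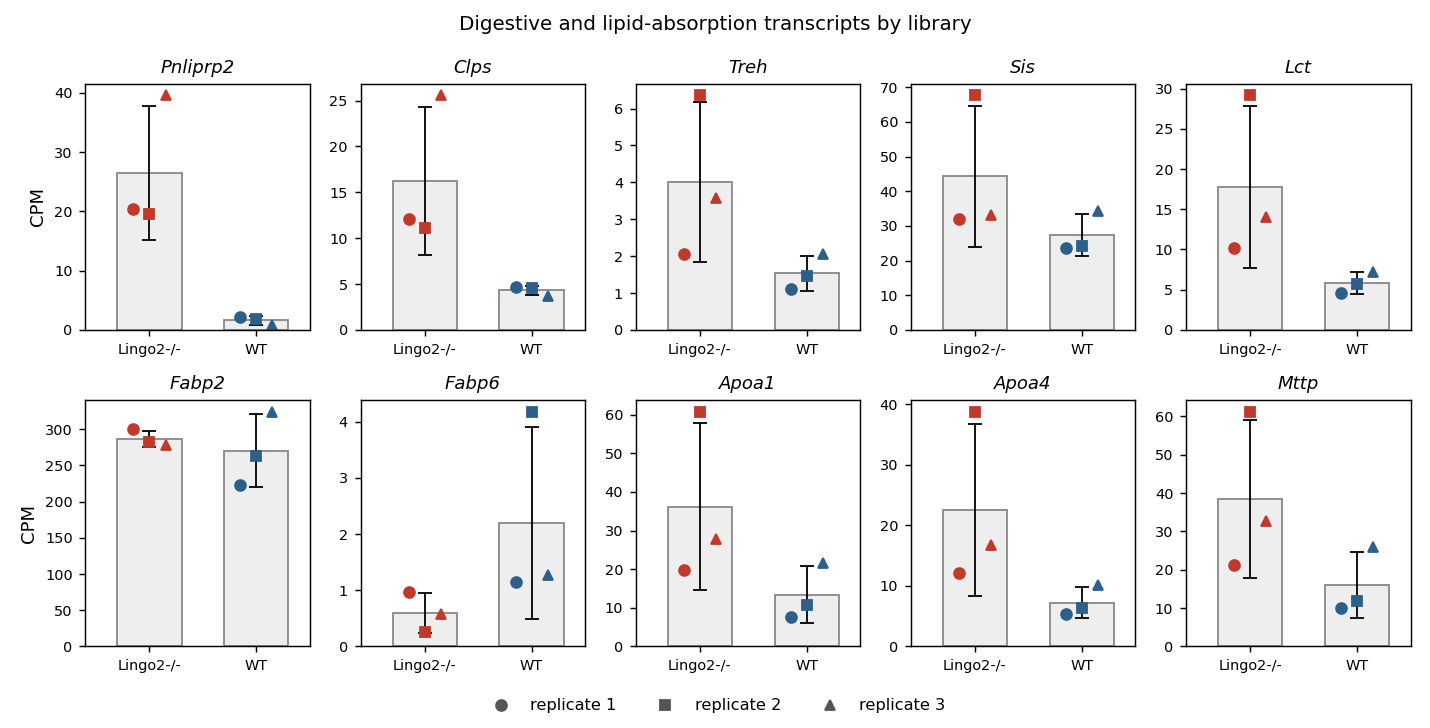
CPM of each of the 10 transcripts in the Lingo2-/- and WT libraries (linear axes from 0). Bars are means, error bars are SDs over 3 libraries and symbols mark the replicate; Pnliprp2 and Clps sit highest in Lingo2-/- replicate 3, while Treh, Sis, Lct, Apoa1, Apoa4 and Mttp sit highest in Lingo2-/- replicate 2.

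Pnliprp2 encodes pancreatic lipase related protein 2, which cuts triglycerides, phospholipids and the galactolipids of plants. Its gene lies on chromosome 19 at 58759719 to 58777534 on the plus strand (GRCm38, GENCODE M21). It had 297, 157 and 342 reads in Lingo2-/- replicates 1, 2 and 3, against 48, 51 and 18 reads in WT replicates 1, 2 and 3. On the CPM scale this was 20.5, 19.6 and 39.6 in Lingo2-/- and 2.21, 1.90 and 0.767 in WT. The lowest Lingo2-/- library stood well above the highest WT library, with 95% exact Poisson intervals of 16.6 to 22.9 CPM and 1.63 to 2.93 CPM that cover counting error only. The means were 26.5 ± 11.3 CPM in Lingo2-/- and 1.63 ± 0.759 CPM in WT (SD, n = 3 each), with a fitted log2 fold change of 4.02 ± 0.46 (SE, edgeR adjusted p = 0.0148). Only 5 of all tested genes had a larger fitted value. The fitted value lay between 3.61 and 4.27 whichever single library was left out, but the call ended without WT replicate 1 (edgeR adjusted p = 0.0533) or WT replicate 2 (0.0755), or with a replicate block (0.0510).

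Clps encodes colipase, the small cofactor that anchors pancreatic lipase to fat droplets covered with bile salts. The gene lies on chromosome 17 at 28558149 to 28560766 on the minus strand. Its reads numbered 175, 89 and 221 in Lingo2-/- replicates 1, 2 and 3, against 101, 122 and 87 in the WT replicates in the same order. The levels were 12.1, 11.1 and 25.6 CPM in Lingo2-/- and 4.65, 4.55 and 3.71 CPM in WT. The groups did not overlap, and the WT libraries were close to each other. The fitted log2 fold change was 1.90 ± 0.33 (SE, edgeR adjusted p = 0.0349), and it stayed between 1.43 and 2.09 when any 1 library was left out. The call ended without WT replicate 1 (edgeR adjusted p = 0.118), 2 (0.110) or 3 (0.0688).

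The lipase and its cofactor kept a narrow ratio in Lingo2-/-, where fewer Clps reads per Pnliprp2 read were found than in any WT library. There were 0.589, 0.567 and 0.646 Clps reads per Pnliprp2 read in Lingo2-/- replicates 1, 2 and 3, against 2.10, 2.39 and 4.83 in WT replicates 1, 2 and 3. Within each genotype the library with most Pnliprp2 also had most Clps. In Lingo2-/- that was replicate 3, and in WT it was replicate 1. The ratio is of reads and is not scaled for length. The highest ratio in WT was that of replicate 3, which had 18 Pnliprp2 reads. The exact Poisson interval of Pnliprp2 in WT replicate 3 was 0.454 to 1.21 CPM. It ended below the lower ends of the intervals of WT replicates 1 and 2, at 1.63 and 1.42 CPM. The cause of the lower Pnliprp2 level in WT replicate 3 was not tested.

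**Figure D2:**
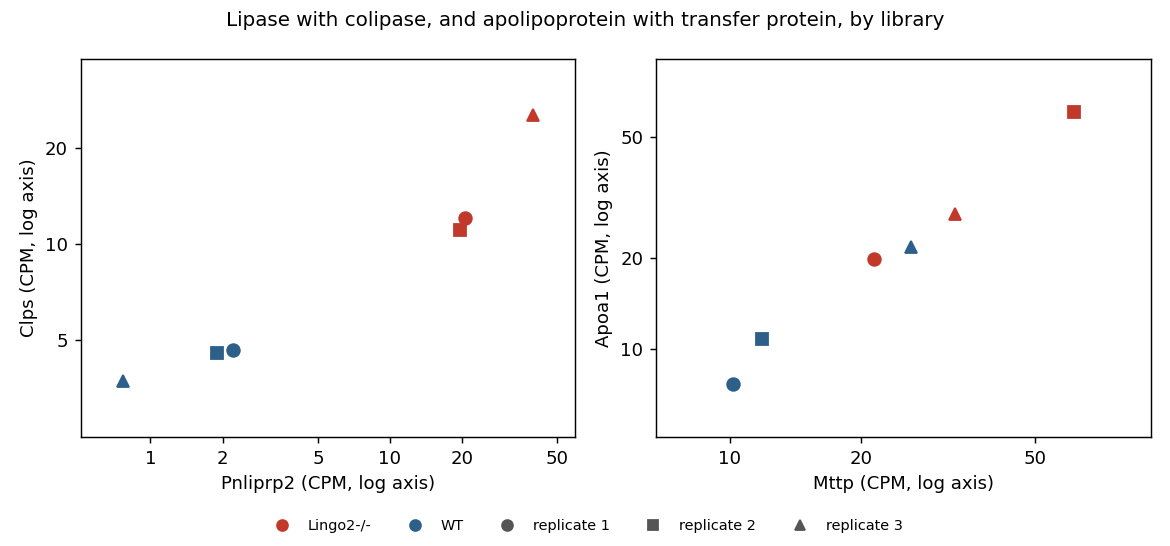
CPM of Clps against Pnliprp2 (left) and of Apoa1 against Mttp (right), 1 point per library, both axes logarithmic. On the left the Lingo2-/- libraries (19.6 to 39.6 CPM of Pnliprp2) stand apart from the WT libraries (0.767 to 2.21 CPM), and on the right the genotypes interleave, with WT replicate 3 between Lingo2-/- replicates 1 and 3.

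Other pancreatic genes were scarce or were not called. Pnlip, the major pancreatic lipase and a neighbour of Pnliprp2 on chromosome 19, had 0 reads in all 6 libraries. Pnliprp1, the lipase relative that lies 15550 bases from Pnliprp2, had 11, 1 and 8 reads in Lingo2-/- replicates 1, 2 and 3 and 0, 0 and 3 reads in WT, too few for the filter. With no filter, or without WT replicate 3, it was tested and edgeR called it higher in Lingo2-/-. Without WT replicate 3 the WT libraries left held 0 reads of Pnliprp1. Only Lingo2-/- libraries, where it was high, could then bring it past the filter, so nothing is read from these calls. Of 9 defining acinar markers, Pnlip, Cela3b, Cpb1 and Amy2a5 were at 0 in every library, and the whole list summed to 0.374 to 1.39 CPM in Lingo2-/- and 0.276 to 0.783 CPM in WT. The defining transcripts of pancreatic acinar cells were thus at or near 0 in both genotypes. In the wider list of 20 pancreatic secretory genes, 6 were tested and edgeR called none in either direction, 0 had an unadjusted p under 0.05, DESeq2 called none as well, and the median was −0.04. The genes of that list with the highest CPM, which is not scaled for length, were Zg16, also a goblet cell lectin, at 692 ± 72.9 CPM in Lingo2-/- and 926 ± 318 CPM in WT (SD, n = 3 each), which was called lower only without WT replicate 2, and Sycn, a granule protein, at 53.4 ± 18.7 CPM and 59.3 ± 35.9 CPM in the same order. Among protein-coding genes within 100 kb of Clps, Fkbp5 was fitted at −0.09 and Srpk1 at 0.28, and neither was called.

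Lct, Treh and Sis, disaccharidases of the brush border, followed another order of libraries. Mgam, the maltase-glucoamylase of the same surface and not a member, did not share it, at 184, 217 and 217 CPM in Lingo2-/- replicates 1, 2 and 3, against 214, 218 and 227 CPM in WT (−0.09, not called). Lct encodes lactase, which splits milk sugar and is most active before weaning (chromosome 1, 128284756 to 128328318, minus strand). It stood at 10.1, 29.2 and 14.0 CPM in Lingo2-/- replicates 1, 2 and 3, against 4.55, 5.74 and 7.20 CPM in WT replicates 1, 2 and 3. The groups did not overlap, with Lingo2-/- replicate 2 far above the others. Its fitted log2 fold change of 1.57 ± 0.44 was not called (SE, edgeR adjusted p = 0.141), and it was 1.02 without Lingo2-/- replicate 2. It was called by edgeR with a replicate block (adjusted p = 0.0404) and by DESeq2 (adjusted p = 0.0295).

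Treh encodes trehalase, which splits the sugar of fungi and insects (chromosome 9, 44673233 to 44686305, plus strand). It was the lowest of the 3 disaccharidases, with 30, 51 and 31 reads in Lingo2-/- replicates 1, 2 and 3 and 24, 39 and 48 reads in WT. These reads made 2.07, 6.36 and 3.59 CPM in Lingo2-/- and 1.10, 1.45 and 2.04 CPM in WT. The groups barely failed to overlap, and the exact Poisson interval of Lingo2-/- replicate 1, up to 2.95 CPM, covered WT replicate 3. The fitted value was 1.31 ± 0.40 (edgeR adjusted p = 0.117) and was 0.82 without Lingo2-/- replicate 2, but without Lingo2-/- replicate 1 it was 1.68 and called (edgeR adjusted p = 0.0273). It was also called by DESeq2 (adjusted p = 0.0215) and by edgeR with no filter. The last exon of Treh shares its final bases with Phldb1 on the other strand, and the strand setting of the counting is not given in the sources used here.

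Sis encodes sucrase-isomaltase, which splits sucrose and the branch points of starch (chromosome 3, 72888557 to 72967863, minus strand). Its levels were 32.0, 67.7 and 33.2 CPM in Lingo2-/- replicates 1, 2 and 3, against 23.6, 24.3 and 34.4 CPM in WT. The groups overlapped, because WT replicate 3 exceeded Lingo2-/- replicates 1 and 3. The fitted value of 0.68 ± 0.36 was not called (edgeR adjusted p = 0.386), and it was 0.24 without Lingo2-/- replicate 2. Reads of Sis per read of Lct were 3.16, 2.32 and 2.37 in Lingo2-/- and 5.18, 4.23 and 4.77 in WT. This read ratio, not scaled for length, was lower in each Lingo2-/- library than in any WT library. No enzyme was measured, and the share of gene pairs without overlap was not computed.

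The promoters of Sis and Lct are shown as examples of disaccharidase genes, next to that of Fabp2, whose transcript differed little between the genotypes. Each line gives the 100 bases before the RefSeq transcription start (GRCm38.p6), 5′ to 3′ on the gene's own strand, at chr3:72967864-72967963 (minus), chr1:128328319-128328418 (minus) and chr3:122894972-122895071 (plus). Capitals mark TTTAT or its reverse complement, the core of the site bound by the CDX factors of the gut, and AGATAA, a site of the GATA factors.
Sis: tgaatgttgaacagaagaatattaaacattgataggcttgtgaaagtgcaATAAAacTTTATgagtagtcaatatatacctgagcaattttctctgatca
Lct: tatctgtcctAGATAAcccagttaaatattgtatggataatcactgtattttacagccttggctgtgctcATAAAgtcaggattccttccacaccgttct
Fabp2: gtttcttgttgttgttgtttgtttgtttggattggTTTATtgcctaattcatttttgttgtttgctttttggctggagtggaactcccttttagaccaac
Both strands of the 250 bases before the start were searched in the 9 members with a RefSeq promoter. TTTAT was found in 4, Sis, Lct, Fabp2 and Fabp6, against 37.3% of 32851 promoters of that length. AGATAA was found in Lct alone, on both strands, where the copy on the other strand overlaps TTTAT, against 9.99% of promoters. GTTAAT, part of the HNF1 site, was found in Sis alone (6.43% of promoters), and AGGTCA, a motif of nuclear receptors, in Treh alone (14.0%). Pnliprp2, Apoa1, Apoa4 and Mttp held none of these letters in that window. A match is a description of letters. Of 14 tested intestinal transcription factors edgeR called none in either direction (median 0.06), 3 had an unadjusted p under 0.05, and DESeq2 called none. Among those with the highest CPM was Hnf4a, at 361 ± 31.1 CPM in Lingo2-/- and 391 ± 46.0 CPM in WT (SD, n = 3 each).

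The intracellular binding proteins differed from each other. Fabp2 encodes the intestinal fatty acid binding protein (chromosome 3, 122895072 to 122899506, plus strand) and was by far the most abundant of the 10. It stood at 299, 282 and 278 CPM in Lingo2-/- replicates 1, 2 and 3, against 223, 263 and 324 CPM in WT. The Lingo2-/- libraries lay inside the WT range. The fitted log2 fold change was 0.08 ± 0.13 (SE, edgeR adjusted p = 0.771) and was −0.04 without WT replicate 1.

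Fabp6 encodes the bile acid binding protein of the ileum (chromosome 11, 43596049 to 43601540, minus strand). It had 14, 2 and 5 reads in Lingo2-/- replicates 1, 2 and 3, against 25, 112 and 30 in WT. The levels were 0.965, 0.249 and 0.578 CPM in Lingo2-/- and 1.15, 4.18 and 1.28 CPM in WT. WT replicate 2 stood apart from the other libraries, and the exact Poisson intervals of Lingo2-/- replicate 1 (0.528 to 1.62 CPM) and WT replicate 1 (0.744 to 1.70 CPM) overlapped. The reads of Lingo2-/- replicate 2 lay under the floor of 3 reads, which is 0.374 CPM in that library. The fitted value was −1.76 ± 0.71 (edgeR adjusted p = 0.244), and −0.89 without WT replicate 2. Of the ileal markers, the hormone gene Fgf15 had 0 reads except 1 in WT replicate 2, while the bile acid transporter Slc10a2, which is also expressed outside the ileum, was at 57.1, 32.2 and 18.2 CPM in Lingo2-/- and 51.6, 71.7 and 70.7 CPM in WT.

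The apolipoproteins and their loading protein shared 1 order of the Lingo2-/- libraries, with replicate 2 highest and replicate 1 lowest. Apoa1 encodes the main protein of high density lipoprotein, made in liver and intestine (chromosome 9, 46228580 to 46230466, plus strand). It stood at 19.9, 60.7 and 27.9 CPM in Lingo2-/- replicates 1, 2 and 3, against 7.68, 10.9 and 21.7 CPM in WT. WT replicate 3 exceeded Lingo2-/- replicate 1, so the groups overlapped (log2 fold change 1.41 ± 0.61, SE, edgeR adjusted p = 0.320).

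Apoa4, an apolipoprotein that the intestine secretes on chylomicrons, lies 10230 bases further along the same strand (46240696 to 46243459). Its levels were 12.1, 38.8 and 16.8 CPM in Lingo2-/-, against 5.34, 6.34 and 10.1 CPM in WT. The groups did not overlap, and the fitted value of 1.60 ± 0.54 was not called (edgeR adjusted p = 0.222). Mttp encodes the microsomal triglyceride transfer protein, which loads lipid on to apolipoprotein B (chromosome 3, 138089854 to 138144968, minus strand). It stood at 21.4, 61.2 and 32.9 CPM in Lingo2-/-, against 10.2, 11.9 and 26.0 CPM in WT. Here too WT replicate 3 exceeded Lingo2-/- replicate 1 (1.24 ± 0.58, edgeR adjusted p = 0.343). Part of the Mttp start overlaps an exon of Trmt10a on the other strand, which had 24 to 42 reads in Lingo2-/- and 55 to 88 reads in WT, few beside those of Mttp.

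Reads of Apoa1 per read of Mttp were 0.929, 0.992 and 0.849 in Lingo2-/- and 0.756, 0.915 and 0.834 in WT, close to each other in all 6 libraries. Without Lingo2-/- replicate 2 the fitted values of Apoa1, Apoa4 and Mttp were 0.81, 0.97 and 0.74. With Lingo2-/- replicate 1 as the only Lingo2-/- library they were 0.55, 0.73 and 0.40. Between Apoa1 and Apoa4 on chromosome 9 lies Apoc3, an inhibitor of lipoprotein lipase. It had 18, 29 and 27 reads in Lingo2-/- replicates 1, 2 and 3 against 8, 11 and 22 reads in WT. The fitted log2 fold change was 2.13 ± 0.48 (SE, edgeR adjusted p = 0.0433). WT replicates 1 and 2, at 0.368 and 0.410 CPM, lay under the level set by the filter on low counts, and WT replicate 3 (0.937 CPM) reached it. The Lingo2-/- libraries, where Apoc3 was high, all reached it, at 1.24, 3.61 and 3.12 CPM. Apoc3 thus entered the test through the Lingo2-/- libraries, so nothing is read from its call. The call of Apoc3 ended without Lingo2-/- replicate 2 (edgeR adjusted p = 0.149) or 3 (0.160), or without WT replicate 1 (0.1145) or 2 (0.115), and by limma voom with sample weights (limma adjusted p = 0.0678). The flanking genes outside the apolipoprotein cluster were not called, with fitted values of 0.04 for Sik3 and 0.18 for Zpr1.

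**Figure D3:**
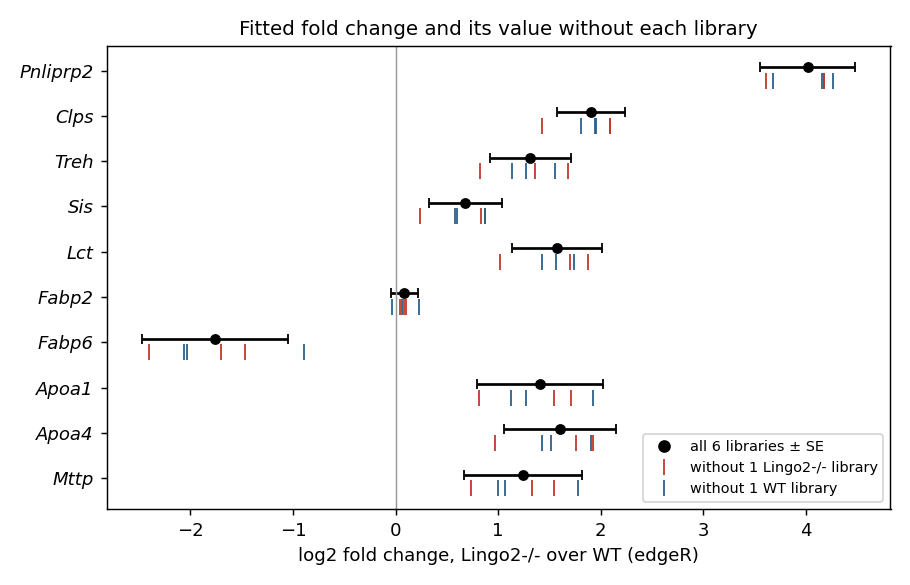
Fitted log2 fold change (Lingo2-/- over WT) of the 10 transcripts with its standard error (black, all 6 libraries) and its value with each library left out (ticks, coloured by the genotype of that library). Pnliprp2 stays between 3.61 and 4.27, Fabp2 lies on both sides of 0, and Fabp6 is −0.89 without WT replicate 2.

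The 10 transcripts were ranked against each other per kilobase of exon (RPKM from the CPM above). In Lingo2-/- the order was Fabp2 (297 ± 11.96 RPKM, SD, n = 3), Apoa1 (29.2 ± 17.5), Clps (26.6 ± 13.2), Pnliprp2 (16.9 ± 7.18), Apoa4 (12.4 ± 7.84), Mttp (6.20 ± 3.30), Sis (5.93 ± 2.71), Lct (2.77 ± 1.57), Treh (1.95 ± 1.06) and Fabp6 (1.25 ± 0.748). Fabp2 stood clear of the rest, and every further neighbour in that order overlapped the member above it. In WT the order was Fabp2 (280 ± 52.5 RPKM, SD, n = 3), Apoa1 (10.8 ± 5.94), Clps (7.04 ± 0.847), Fabp6 (4.60 ± 3.57), Apoa4 (3.998 ± 1.38), Sis (3.67 ± 0.809), Mttp (2.58 ± 1.40), Pnliprp2 (1.03 ± 0.483), Lct (0.910 ± 0.207) and Treh (0.749 ± 0.232). There the gaps below Fabp2 and between Mttp and Pnliprp2 held in all libraries, and the other neighbours overlapped. Pnliprp2 thus ranked 4 in Lingo2-/- and 8 in WT.

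Other genes of digestion and absorption, in lists chosen with earlier results of these data known, held few called genes. Of 19 tested genes of fat absorption and chylomicron assembly, 10 had an unadjusted p under 0.05, a level at which the share of all tested genes was not computed. The median was 0.33, and DESeq2 called 3 higher and none lower, against 4.01% of all tested genes in either direction. By edgeR 2 were called higher and none lower, against 1.04% and 1.52% of all tested genes. Those called were Apoc3, which entered the test through the Lingo2-/- libraries as given above, and Dgat1, which makes triglyceride. Dgat1 stood at 39.8 ± 2.25 CPM in Lingo2-/- and 25.4 ± 4.86 CPM in WT (SD, n = 3 each). Its fitted log2 fold change was 0.64 ± 0.13 (SE, edgeR adjusted p = 0.0214). Neither Apoc3 nor Dgat1 was called without Lingo2-/- replicate 2 or 3 or without WT replicate 1 or 2 (edgeR adjusted p = 0.0682 to 0.160). Dgat1 was also not called without Lingo2-/- replicate 1 (edgeR adjusted p = 0.0542).

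Of 14 brush border hydrolases other than the members, edgeR called 2 lower and none higher, with 5 at an unadjusted p under 0.05 and a median of 0.03, while DESeq2 called 3 higher and 2 lower. Naaladl1, a brush border peptidase, fell to 29.1 ± 6.42 CPM in Lingo2-/-, against 59.2 ± 5.90 CPM in WT (SD, n = 3 each; −1.01 ± 0.14, SE, edgeR adjusted p = 0.00458). Mep1a, the alpha subunit of the protease meprin, fell to 231 ± 9.05 CPM in Lingo2-/-, against 359 ± 64.8 CPM in WT (−0.63 ± 0.13, edgeR adjusted p = 0.0277). The call of Naaladl1 held without any 1 library, and that of Mep1a ended without any 1 library other than WT replicate 2 (edgeR adjusted p = 0.0514 to 0.123). Of 16 genes of nutrient and bile acid transport edgeR called none in either direction, 5 had an unadjusted p under 0.05, DESeq2 called 2 higher and 1 lower, and the median was −0.32. The calls varied with the setting. The edgeR test called the sugar transporters Slc2a2 and Slc2a5 higher without Lingo2-/- replicate 1, and the amino acid transporter Slc6a19 higher with a replicate block. It called Slc3a1, a subunit of an amino acid transporter, lower with upper quartile scaling or with a filter of 1 CPM in 3 libraries, and called 3 higher and 2 lower with no filter. The genes with the highest CPM were the peptide transporter Slc15a1, at 114 ± 18.9 CPM in Lingo2-/- and 154 ± 79.6 CPM in WT, and the glucose transporter Slc5a1, at 91.7 ± 10.01 CPM in Lingo2-/- and 77.6 ± 13.2 CPM in WT (SD, n = 3 each).

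The summed genes listed as duodenal and jejunal markers had the library order of Treh, Lct and Apoa4, while the ileal marker Slc10a2 given above did not. In CPM the sum is mostly Alpi. Whether Alpi is limited to the duodenum and jejunum was not tested, so the sum is mainly a reading of Alpi. The 7 listed markers (Gata4, Pdx1, Onecut2, Tmprss15, Slc2a2, Alpi and Gip) all had reads and all had a higher mean in Lingo2-/-, while 50.1% of all tested genes were fitted above 0. Of the 6 that passed the filter edgeR called none with all 6 libraries and no block, and 4 had an unadjusted p under 0.05. The outcomes of DESeq2 and of the other settings were looked up for the listed markers other than Gip. DESeq2 called Alpi and Slc2a2 higher. The edgeR test called Alpi higher with a replicate block, Slc2a2 without Lingo2-/- replicate 1, and both of these and Gata4 with no filter. They summed to 34.1, 67.8 and 47.1 CPM in Lingo2-/- replicates 1, 2 and 3, against 19.9, 25.1 and 33.5 CPM in WT replicates 1, 2 and 3. Alpi, an intestinal alkaline phosphatase, was at 27.0 to 46.5 CPM in Lingo2-/- and 16.3 to 25.1 CPM in WT. It was the only 1 of the 7 whose groups did not overlap. Gata4, Pdx1, Onecut2, Tmprss15 and Gip overlapped between the genotypes. Slc2a2, a sugar transporter, also overlapped, at 2.41, 8.23 and 4.40 CPM in Lingo2-/- and 1.66, 1.57 and 2.60 CPM in WT.

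The 13 markers of Paneth cells, which line small intestinal crypts, summed to 22.9, 71.3 and 36.6 CPM in Lingo2-/- and 11.3, 11.8 and 22.2 CPM in WT. Of these 12 had reads, all with a higher mean in Lingo2-/-, beside 50.1% of all tested genes fitted above 0, and Defa23 was at 0. Only 4 passed the filter, edgeR called none of them with all 6 libraries, and 3 had an unadjusted p under 0.05. DESeq2 and the other settings were not looked up for this list. Among these 4, Defa24 and Defa30 did not overlap between the genotypes, and Lyz1 and Mmp7 did. The markers that failed the filter had at most 14 reads in any library. Treh, Lct and Apoa4 had the same order of the 6 libraries as the duodenal and jejunal sum, an order that 0.615% of all tested genes shared. The 4 distal colon position genes found in the table summed to 44.0 to 63.6 CPM in Lingo2-/- and 34.0 to 91.3 CPM in WT, and the 8 liver markers to 4.86 to 7.38 CPM and 2.69 to 5.80 CPM in the same order, with Fgb, Fga and Serpina3k at 0 in all 6 libraries. The part of small intestinal cells in the member levels was not tested.

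Divided by the duodenal and jejunal sum of the same library, a ratio chosen after the values were seen, Pnliprp2 remained apart at 0.289 to 0.840 in Lingo2-/- and 0.0229 to 0.111 in WT. Lct (0.297 to 0.430 in Lingo2-/- and 0.215 to 0.229 in WT) and Apoa4 (0.356 to 0.572 and 0.253 to 0.302) also did not overlap. Clps, Treh, Sis, Apoa1 and Mttp overlapped between the genotypes on this ratio, with Clps at 0.164 to 0.543 in Lingo2-/- and 0.111 to 0.233 in WT. Fabp2 (4.15 to 8.79 in Lingo2-/- and 9.67 to 11.2 in WT) and Fabp6 (0.00368 to 0.0283 and 0.0382 to 0.166) were lower in Lingo2-/- without overlap. The divisor, in CPM mostly Alpi, was itself higher in Lingo2-/- (34.1 to 67.8 CPM) than in WT (19.9 to 33.5 CPM). The division therefore lowers any transcript that differs little between the genotypes, as Fabp2 does. The share of all tested genes without overlap on this ratio was not computed, so nothing is read from these outcomes.

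**Figure D4:**
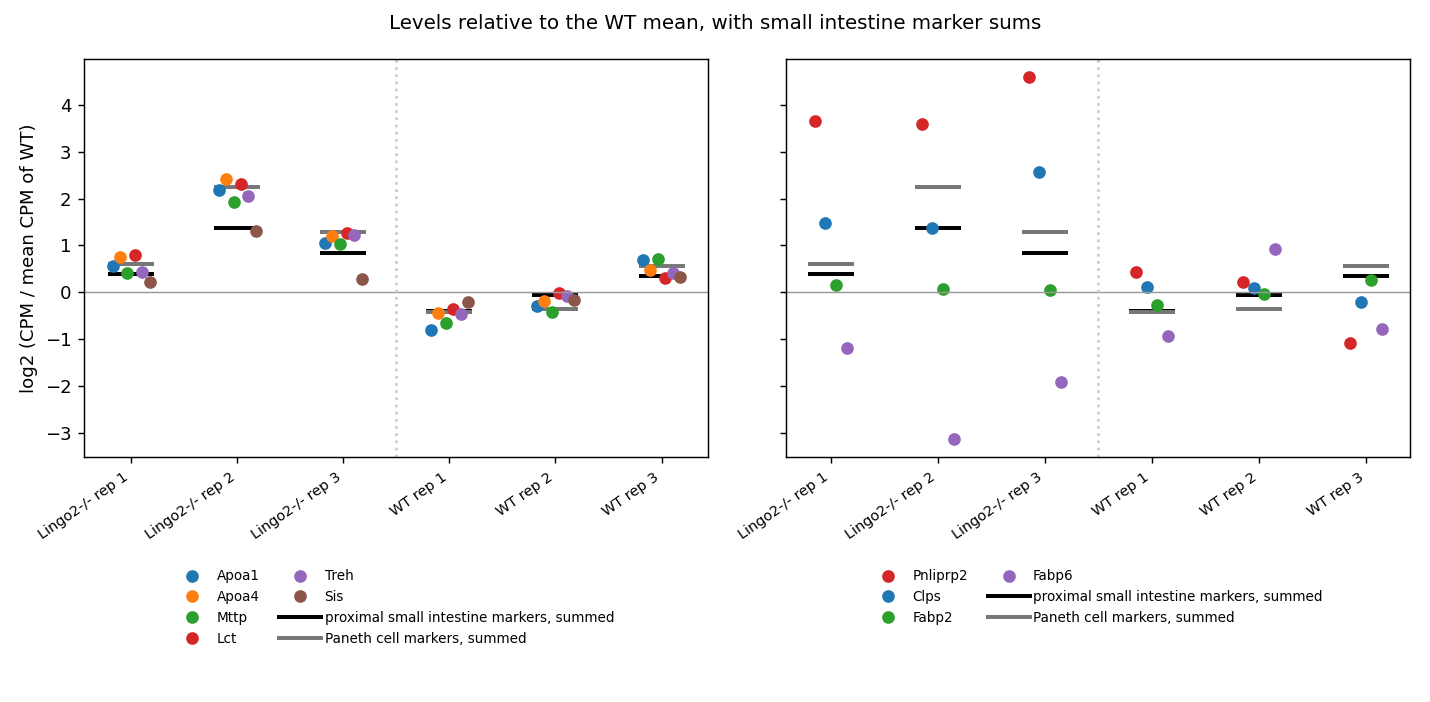
Level of each transcript per library relative to the WT mean (log2 of the CPM ratio), with the summed duodenal and jejunal markers (black bars) and Paneth cell markers (grey bars) on the same scale. The sum behind the black bars is in CPM mostly Alpi. The disaccharidases, apolipoproteins and Mttp (left) are highest in Lingo2-/- replicate 2, where both marker sums are highest (67.8 and 71.3 CPM), while Pnliprp2 and Clps (right) are highest in Lingo2-/- replicate 3.

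Likeness of pattern was ranked only among tested genes outside the set with a symbol and a mean log2 CPM of at least 1. Those whose library pattern was most like the mean of the 10 were Alpi, Zfp36l2, Gm4081, Cyp3a11 and 2610005L07Rik. Their Pearson r with the mean standardized profile of the members was 0.989 to 0.994 over 6 libraries, which share genotype and depth, and is given as a description. Alpi is itself in the duodenal and jejunal list above. Cyp3a11, a drug-metabolizing cytochrome, stood at 3.52, 6.86 and 4.40 CPM in Lingo2-/- replicates 1, 2 and 3, against 1.52, 1.83 and 3.07 CPM in WT. Among the members the r with that profile was 0.964 to 0.977 for Treh, Lct, Apoa1, Apoa4 and Mttp, 0.886 for Sis, 0.732 for Pnliprp2, 0.711 for Clps, 0.560 for Fabp2 and −0.762 for Fabp6.

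In the authors' deposited table, which was computed from the same 6 libraries, 4.71% of 14338 genes had an adjusted p under 0.05. The members among them in the authors' deposited table numbered 4, namely Pnliprp2 (log2 fold change 4.04), Clps (1.92), Treh (1.35, adjusted p = 0.0169) and Lct (1.61, adjusted p = 0.0273). Fabp6 had a log2 fold change of −1.80 and an adjusted p of 0.0527 in the authors' deposited table. The deposited values shared the direction of the edgeR fit in all 10 members. Rerun here from the counts, DESeq2 called 4 members, against 4.01% of all tested genes. The edgeR test called 4 members with no filter on low counts, against 5.18%, and 2 members with a replicate block, against 2.15%.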

How the data were processed

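Total RNA was sequenced in 6 libraries of mouse colon epithelial fraction. Trimmomatic 0.39, STAR, HTSeq, DESeq2 and the build GRCm38 are named in the submitters' processing notes. No source used here gives the annotation release or the strand setting. Raw read counts per gene were deposited, with 5 summary lines that were left out. The authors also deposited a DESeq2 table with a normalized signal (each value is the count times a factor of its library, within 1e-06), log2 fold changes, a test score and p-values.

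Counts were tested with edgeR 4.0.16 (R 4.3.3; filterByExpr, TMM, robust quasi-likelihood F test, genotype only) over 16757 genes, with Benjamini-Hochberg adjustment over all of them and a threshold of 0.05. Standard errors were derived as log2 fold change over the root of F. CPM use TMM-scaled library sizes. A floor of 3 reads is 0.207 to 0.374 CPM in Lingo2-/- and 0.112 to 0.138 CPM in WT. Positions and exon lengths are from GENCODE M21 (GRCm38), which with the table of gene names gave a symbol to most rows. Alternatives were limma 3.58.1, DESeq2 1.42.0, other scalings and filters, a replicate block and left-out libraries. The script was checked on simulated counts. Libraries of a genotype differed by a chi-square of 8.40 to 19.4 per degree of freedom over genes, above sampling noise.

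The members, gene lists, motifs and rules were chosen with earlier results of these data known. Named genes are the 10 members, the called genes of each list (or its 2 highest in CPM where none was called) and the 5 genes most like the mean profile; markers and neighbouring genes are given as described, and Pnliprp1, Fkbp5, Srpk1, Sik3, Zpr1, Mgam, Gata4, Slc2a2, Slc2a5, Slc6a19 and Slc3a1 were singled out after their values were seen. 1 gene that the rule names is not reported here.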

Additional observations from a re-analysis of the deposited data

How the results depend on the processing

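The count of changed genes was 430, with 1493 when no filter was used, 672 by the DESeq2 Wald test and 81 with Lingo2-/- replicate 1 as the only Lingo2-/- library, and 174 to 674 without any 1 library. Members called numbered 2, with 4 without a filter (Treh and Fabp6 added), 4 by DESeq2 (Treh and Lct added) and 0 to 3 without any 1 library. The member median of 1.36 was 0.48 with Lingo2-/- replicate 1 as the only Lingo2-/- library, where the lone sample is assumed to vary like the others, and 0.81 to 1.76 without any 1 library. Fabp2 changed sign without WT replicate 1, and lay between −0.038 and 0.23 without any 1 library. The cause was not tested. The other scalings and filters run kept the direction of every member. Samples with the same replicate number did not deviate together (r = −0.126, 0.128 and −0.022), and no Lingo2-/- library other than replicate 2 correlated best with its own number. A replicate block gave 360 changed genes and 2 members called, Clps and Lct (edgeR adjusted p = 0.0404), with Pnliprp2 at 3.96 (edgeR adjusted p = 0.0510). Fabp6 and Treh rest on 2 to 51 reads in the Lingo2-/- libraries. With no filter edgeR also called 4 higher and 2 lower of the brush border list, 6 higher and 1 lower of the fat absorption list, and Gata4 higher among the transcription factors.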
